A study of Mus musculus with 6 samples.

Results

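The genes described here encode the initiation and elongation factors of cytosolic translation together with their direct kinases, repressors and modifying enzymes. They are the 72 gene symbols of the deposited table that begin with Eif1 to Eif6, Eef1 or Eef2, out of 25164 in all; symbols of pseudogenes marked -ps were to be left out, and 0 matched. The levels come from RNA sequencing of whole ovaries of C57BL/6 mice at day 1, in 3 libraries labelled hnRNPL flox/flox;Stra8-cre (cKO) and 3 labelled wild type. Stra8-cre expresses Cre recombinase in germ cells, and the ovaries also hold somatic cells without it. Libraries were made from amplified cDNA. The labels do not say whether the wild type animals carried the floxed allele or the transgene, whether the libraries of a group are separate animals, or what hormone challenge the protocol refers to. P-values therefore measure the spread between these libraries, which may be technical.

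Translation begins when eIF2 brings the initiator methionyl-tRNA to the small ribosomal subunit with eIF1, eIF1A, eIF3 and eIF5, and eIF4F (the cap-binding protein eIF4E, the scaffold eIF4G and the helicase eIF4A) recruits the mRNA. A pair of inputs regulates these steps: the eIF2 alpha kinases block the exchange of GDP for GTP on eIF2 by eIF2B, and the 4E-BP repressors hold eIF4E until mTOR phosphorylates them. The elongation factor eEF1A then delivers aminoacyl-tRNA and eEF2 moves the ribosome along, while eIF5A, which carries the amino acid hypusine, relieves stalls. The series names mTOR and the formation of primordial follicles, the stores of resting oocytes, as its subject, so the eIF4E repressors lie on a pathway that the study asks about.

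Many mRNAs of the translation machinery start with a C followed by an unbroken run of C and T, the tract through which mTOR and LARP1 control their translation. RefSeq promoter windows (GRCm38.p6, 250 bases before to 50 after an annotated start) were found for 56 of the 72 genes, not for Eif4ebp1. A tract of at least 5 bases from a C at the start stood in 3 of 56 genes (5.4%), against 3.1% of tested genes and 3.0% of all genes with a window. The 3 are Eif3f, Eif2s3x and Eif2c5, and Eif2c5 is no translation factor. The starts below show a gene of eIF3, a gene of eIF2 and the most abundant factor of each elongation step, from 10 bases before the annotated start to 20 after, with the tract in capitals.

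Eif3f, chr7:108934405-108934434, + strand: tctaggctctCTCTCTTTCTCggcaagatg

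Eif2s3x, chrX:94212632-94212661, - strand: gagcattttcCTTTTCTCTCCgagcaagat

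Eef1a1, chr9:78481705-78481734, - strand: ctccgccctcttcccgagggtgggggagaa

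Eef2, chr10:81176621-81176650, + strand: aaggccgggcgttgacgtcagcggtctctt

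Eif3f and Eif2s3x carried tracts of 11 bases, and the annotated starts of Eef1a1 and Eef2 carried none, which depends on the exact base at which RefSeq places the start. The letters CACGTG, the E-box that MYC proteins bind and a palindrome that reads alike on both strands, stood in a window of 15 of 56 genes (26.8%), against 12.1% of tested genes and 8.1% of all genes with a window. The 15 count Eef1akmt4 and the untested Eef1akmt4-ece2 separately, although their RefSeq spans begin at the same base, 20611601. The response element of ATF4, TGATGNAA on either strand, stood in 2 of 56 (3.6%), against 2.5% of tested genes and 4.5% of all genes with a window. The 250 bases before the start are shown for Eif5a2 and Eif5, the 2 genes with a window among the 3 of smallest p after median-of-ratios scaling (below), with CACGTG in capitals.

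Eif5a2, chr3:28781027-28781276, + strand: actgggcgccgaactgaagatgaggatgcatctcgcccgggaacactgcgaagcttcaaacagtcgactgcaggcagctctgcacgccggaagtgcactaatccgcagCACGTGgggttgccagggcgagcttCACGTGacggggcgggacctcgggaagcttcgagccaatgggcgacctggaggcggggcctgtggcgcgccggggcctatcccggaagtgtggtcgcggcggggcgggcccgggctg

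Eif5, chr12:111537851-111538100, + strand: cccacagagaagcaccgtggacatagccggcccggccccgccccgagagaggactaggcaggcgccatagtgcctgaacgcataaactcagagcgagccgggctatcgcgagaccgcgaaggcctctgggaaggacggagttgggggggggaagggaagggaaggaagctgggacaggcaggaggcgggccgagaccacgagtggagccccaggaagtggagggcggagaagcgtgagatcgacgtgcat

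Eif5a2 held the E-box 142 and 117 bases before the start that the window uses, and Eif5 held none. RefSeq's span of Eif5a2 begins farther upstream, at 28781032, so both E-boxes lie inside the annotated gene, counted over all its transcripts. A match is a string of letters and not a measured binding site, and base composition was not matched. Among tested members, the 14 with CACGTG had a median log2 fold change of 0.26 and the 36 without it one of 0.22.

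Depth, estimated from the smallest steps of FPKM, was lowest in cKO replicate 1, at 7100000 fragments, and highest in wild type replicate 1, at 14100000. FPKM (fragments scaled by transcript length and by library size) allows levels to be compared between genes. Hnrnpl, the targeted gene, stood at 100.5, 81.5 and 85.2 FPKM in cKO and at 104.1, 93.8 and 101.9 FPKM in wild type. The difference missed the threshold (log2 fold change -0.17, SE 0.13, limma adjusted p = 0.571, exact permutation p = 0.2), also after median-of-ratios scaling, described below (-0.26, limma adjusted p = 0.15). A value over the whole gene and the whole tissue does not show the floxed exons in germ cells, so it is a weak check of the labels. As deposited, the 13 genes of the germ cell marker list summed to 176.6 to 323.4 FPKM in cKO and 158.6 to 175.9 in wild type. The groups nearly met, and the highest sum was that of cKO replicate 1. That library also had the largest FPKM sum over all genes, 335667, against 223845 to 246121 in the others. The marker sums are not corrected for this. Of the 13 markers, 9 had positive and 4 negative log2 fold changes as deposited. After rescaling to TPM, described below, 7 were positive. The 8 genes of the stroma list summed to less in cKO, 779.6 to 858.2 FPKM against 1017.6 to 1063.3 FPKM. Granulosa markers overlapped, at 351.3 to 442.1 and 344.9 to 358.5 FPKM over 10 genes. None of the 13 germ cell markers or the 10 granulosa markers, which include Foxl2, was at 0 in a library. Fewer cells of a type and less RNA per cell cannot be told apart in whole ovaries, and the part of tissue makeup in the results below was not tested.

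The test took genes whose mean reached 1 FPKM, 64 of the 72 members among 12442 genes, on log2(FPKM + 1) with limma; a gene was called at a Benjamini-Hochberg adjusted p under 0.05 over all tested genes. No member was called, against 0.121% of all tested genes. At an unadjusted p under 0.05, 9 members were higher in cKO and 0 lower, against 9.89% and 4.26% of all tested genes. Over the 64 members the adjusted p ran from 0.139 to 0.981 and the SE of the log2 fold change from 0.09 to 0.30. Most members nevertheless had positive log2 fold changes, 58 of 64, against 65.2% of all tested genes. Their median was 0.23, against 0.08 over all tested genes. In 16 members every cKO library stood above every wild type library, against 15.5% of all tested genes, and in 1 every cKO library stood below, against 7.03%.

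The lean toward cKO came largely with 1 library. In 58 of the 64 tested members cKO replicate 1 was the highest of the 6 libraries, against 58% of all tested genes, and none was highest in cKO replicate 2 or 3. The members' FPKM summed to 5944.5 in cKO replicate 1 and to 3867.8 to 4151.2 in the other 5 libraries. Without cKO replicate 1, 44 members were positive, against 49.8% of tested genes, and the median was 0.06; 0 were called, against 0.717% of tested genes. After median-of-ratios scaling, which divides each library by its typical ratio to the others, 51 of 64 members were positive against 50% of all tested genes, with a median of 0.15 against 0.00 over all. After this scaling 0 members were called, against 1.29% of all tested genes, and 13 were higher and 1 lower at an unadjusted p under 0.05, against 9.53% and 9.41%. Groups did not overlap in 16 members higher and 1 lower, against 12.6% and 13% of all tested genes. Rescaling to TPM, in which every library has the same sum, moved the median of all tested genes to -0.12, and 37 members were then positive, 57.8% against 30.8% of all tested genes, with a median of 0.04. Members with short transcripts stood higher in cKO replicate 1: across the 64 members, which share the library, Spearman's rho of the deviation from the gene mean with transcript length was -0.50 there and -0.36 for the log2 fold change.

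**Figure D1:**
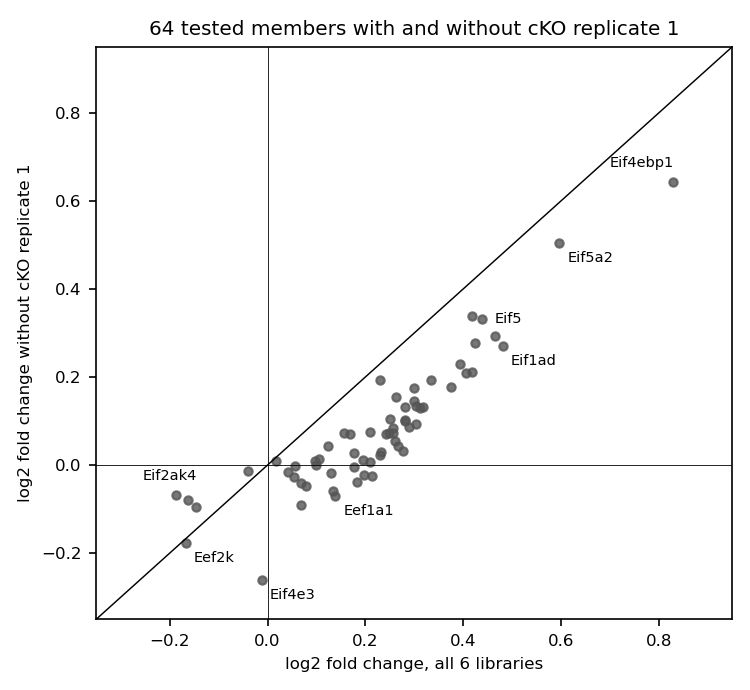
Log2 fold change (cKO minus wild type, log2(FPKM + 1) scale) of each tested member in all 6 libraries (x axis) and without cKO replicate 1 (y axis), with the line of equality. Most members fall below the line, the median moves from 0.23 to 0.06, and Eif4ebp1 and Eif5a2 stay the farthest to the upper right.

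Among the repressors of eIF4E, Eif4ebp1 showed the largest log2 fold change of all tested members. It encodes the repressor that mTOR phosphorylates most closely with growth signals, and it lies on chromosome 8 from 27260327 to 27275656 (GRCm38). It was measured at 37.3, 30.9 and 20.4 FPKM in cKO and at 15.99, 15.2 and 15.97 FPKM in wild type, or 29.5 ± 8.52 and 15.7 ± 0.453 FPKM (mean ± SD, n = 3). Every cKO library lay above every wild type library, and the cKO libraries spread over a wide range while the wild type libraries nearly coincided. The log2 fold change was 0.83 (SE 0.20, limma adjusted p = 0.159) and 0.74 after median-of-ratios scaling (limma adjusted p = 0.0614), and the exact permutation test gave p = 0.1, the smallest that 3 against 3 libraries allow. It was called with quantile normalization (limma adjusted p = 0.0480), 1 of 2 members called there against 1.9% of all tested genes, and without cKO replicate 3 (limma adjusted p = 0.0379), and was positive in 18 of 18 alternatives, whose adjusted p ran from 0.038 to 0.444. As deposited, Dazl, an RNA-binding protein of germ cells, had the same order of the 3 cKO libraries. It stood at 39.0, 27.6 and 16.8 FPKM in cKO and 9.65, 11.97 and 9.34 FPKM in wild type. After median-of-ratios scaling the orders differed, at 31.75, 31.90 and 20.98 for Eif4ebp1 and 33.2, 28.6 and 17.3 for Dazl in cKO. The germ cell marker Ddx4 had the order of Dazl as deposited, at 6.53, 4.34 and 3.53 FPKM in cKO, while its groups overlapped. That order as deposited was not particular to Dazl. The germ cell marker Sohlh1, at 54.2, 34.4 and 28.9 FPKM in cKO, and the members Eif5 and Eif1ax had it too. Of the 13 germ cell markers 9 had positive and 4 negative log2 fold changes. The negative ones include Gdf9, Zp3 and Nlrp14, at -0.83, -1.51 and -1.56. Dazl was chosen after its values were seen, and its part in the difference was not tested.

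In the paralogs of this repressor the groups overlapped. Eif4ebp2 stood at 24.4, 21.3 and 18.6 FPKM in cKO and 22.5, 19.4 and 17.6 FPKM in wild type (log2 fold change 0.11, SE 0.14; -0.0033 with quantile normalization and -0.10 with TPM). Eif4ebp3 stood at 3.51, 3.92 and 4.82 FPKM against 5.15, 3.99 and 4.89 FPKM, with a negative log2 fold change of -0.16 (SE 0.14). Within a library, the ratio of Eif4ebp1 to Eif4ebp2 was 1.53, 1.45 and 1.10 in cKO, compared with 0.712, 0.782 and 0.909 in wild type. The order of the pair thus differed between the groups, Eif4ebp1 being the more abundant mRNA in all 3 cKO libraries and Eif4ebp2 in all 3 wild type libraries (exact permutation p = 0.1, the smallest possible).

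**Figure D2:**
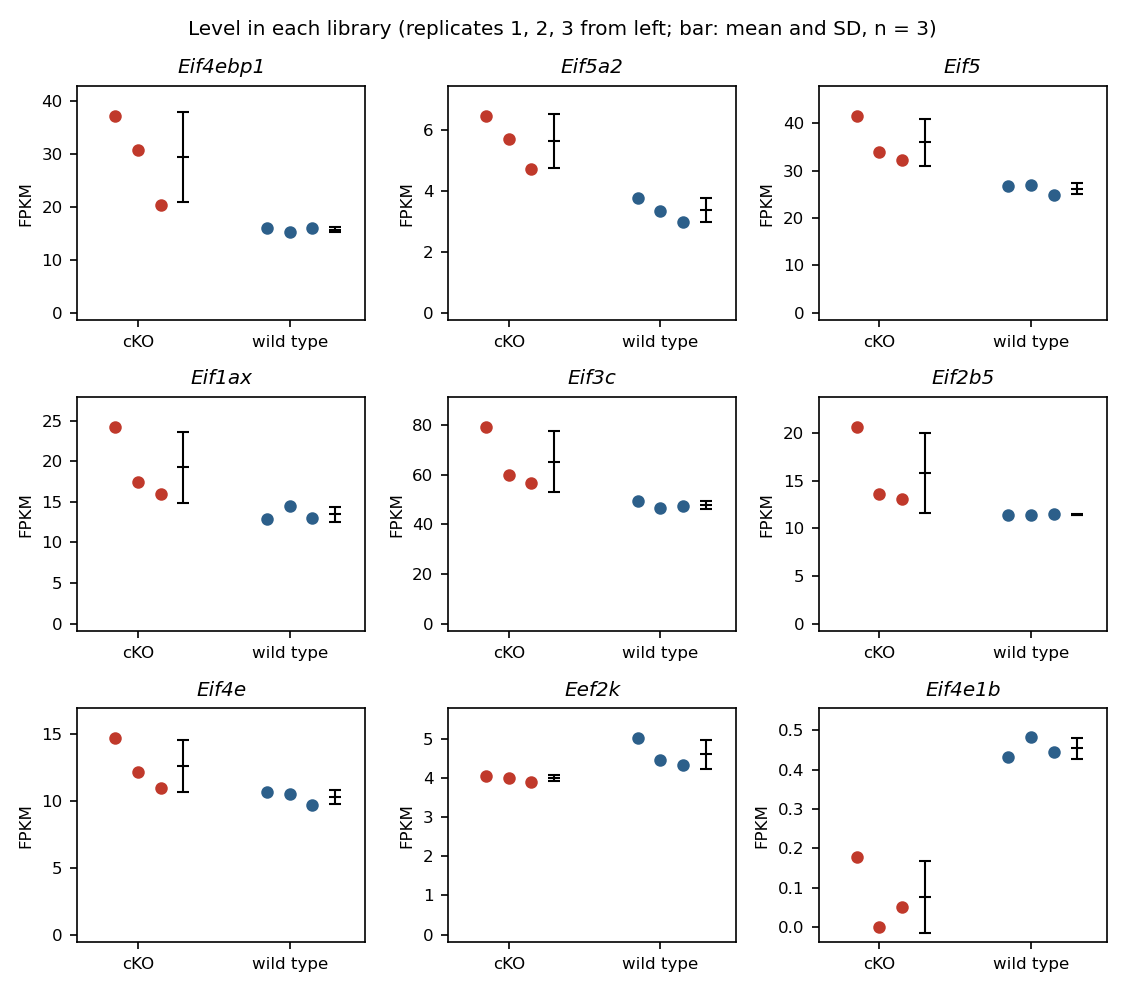
FPKM (y axis) of 9 members in each of the 3 cKO and 3 wild type libraries, with the mean and SD beside the points. Eif4ebp1, Eif5a2, Eif5, Eif1ax, Eif3c, Eif2b5 and Eif4e lie higher in every cKO library, and Eef2k and Eif4e1b lower; the SD bar of Eif4e1b in cKO reaches below 0 because its mean is near 0.

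The cap-binding and helicase genes differed little between the groups. Eif4e, which binds the mRNA cap, was measured at 14.7, 12.1 and 10.9 FPKM in cKO and at 10.6, 10.5 and 9.66 FPKM in wild type. The groups did not overlap, but by a narrow margin, and the difference of 0.26 on the log2 scale (SE 0.12) missed the threshold (limma adjusted p = 0.374). Eif4a1, the main helicase and 1 of the 5 most abundant members, stood at 242.0, 167.9 and 166.5 FPKM against 163.5, 151.7 and 151.8 FPKM. Its groups did not overlap either (log2 fold change 0.28, SE 0.18, limma adjusted p = 0.504), yet cKO replicates 2 and 3 lay within 5 FPKM of the highest wild type library. The scaffold gene Eif4g3 had the lowest log2 fold change of the class, at 20.4, 22.2 and 21.0 FPKM against 22.1, 21.1 and 22.2 FPKM (-0.04, SE 0.09). Over the 10 tested genes of the class the median was 0.09, and 0.00 after scaling, when 5 were positive and 5 negative.

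Within a library a ratio of 2 genes does not change when all values are divided by the same factor, as in median-of-ratios or TPM scaling. Quantile normalization and the length and GC correction can change it, and the ratios were not corrected for transcript length. The longest transcript has 1997 bases for Eif4ebp1, 4991 for Eif4e and 5784 for Eif4ebp2. Of 10 ratios within a library, chosen after the values were seen, 6 did not overlap between the groups and 0 could reach a p under 0.1. Because of that choice the count is no result about the members, and the share among ratios of other gene pairs was not computed. The ratio of Eif4ebp1 to Eif4e was 2.54, 2.55 and 1.87 in cKO, compared with 1.503, 1.45 and 1.65 in wild type. It was higher in every cKO library (exact permutation p = 0.1, the smallest possible). The ratio of Eif4ebp2 to Eif4e ran the other way, at 1.66, 1.76 and 1.70 in cKO, compared with 2.11, 1.86 and 1.82 in wild type (exact permutation p = 0.1). These are ratios of mRNA levels and hold no information on protein or phosphorylation.

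**Figure D3:**
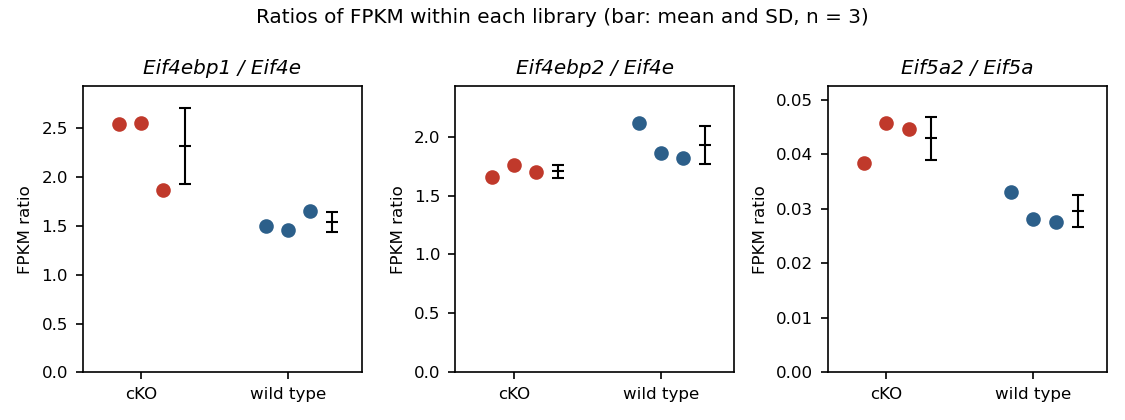
Ratio of FPKM within each library (y axis, from 0) for Eif4ebp1 to Eif4e, Eif4ebp2 to Eif4e and Eif5a2 to Eif5a, with points for the 3 libraries of a group and bars for mean and SD. The ratios with Eif4ebp1 and Eif5a2 are higher in all 3 cKO libraries, and that of Eif4ebp2 is lower.

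Eif4e1b, the cap-binding paralog of oocytes, lay lower in cKO, at a level too low for the test. It was listed at 0.177, 0 and 0.0508 FPKM in cKO and at 0.432, 0.484 and 0.446 FPKM in wild type. The estimated depth puts this at 0 to 2.43 fragments per cKO library and 9.39 to 12.5 per wild type library. Every cKO library lay below every wild type library (exact permutation p = 0.1); with no filter on low values the limma adjusted p was 0.140 over all genes. Among the germ cell markers 9 of 13 (69.2%) had positive log2 fold changes, against 65.2% of all tested genes. In 5 of them, Dazl, Sohlh1, Sycp3, Tex15 and Tex11, every cKO library was higher, against 15.5% of all tested genes, and in 3, Zp3, Gdf9 and Nlrp14, every cKO library was lower, against 7.03%. Named after their values were seen are Zp3, a zona pellucida glycoprotein, at 2.05, 2.41 and 2.12 FPKM in cKO against 9.47, 9.63 and 5.69 FPKM, and Gdf9, an oocyte growth factor, at 2.81, 2.50 and 2.52 FPKM against 7.03, 5.50 and 4.10 FPKM (limma adjusted p = 0.0437 and 0.114). How far these differences and that of Eif4e1b share a source was not tested.

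Of the factors that scan for and select the start codon, Eif5 and Eif1ax had the largest log2 fold changes. Eif5, the GTPase-activating protein of eIF2, was measured at 41.6, 34.0 and 32.3 FPKM in cKO and 26.7, 26.9 and 24.8 FPKM in wild type. All cKO libraries lay above all wild type libraries, by more than the wild type spread. The log2 fold change was 0.44 (SE 0.12, limma adjusted p = 0.204), and 0.35 after median-of-ratios scaling (limma adjusted p = 0.0549). It was called with the correction for length and GC content (limma adjusted p = 0.0412), as the 1 member against 2.17% of all tested genes, while its adjusted p over 18 alternatives ran from 0.041 to 0.557.

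Eif1ax, the X-linked gene of eIF1A, stood at 24.3, 17.4 and 16.03 FPKM against 12.9, 14.5 and 13.0 FPKM, with no overlap (log2 fold change 0.47, SE 0.16, limma adjusted p = 0.262). Eif1a, a gene of the same factor on chromosome 18 whose reads may be shared with it, overlapped between groups at 10.9, 7.73 and 10.5 FPKM against 9.65, 9.02 and 8.99 FPKM. Eif1, whose product guards the choice of start codon, stood at 199.7, 138.9 and 145.3 FPKM against 118.2, 129.6 and 115.5 FPKM (log2 fold change 0.39, SE 0.17, limma adjusted p = 0.358). The 5 genes of this class had a median of 0.39, and of 0.31 after scaling, above those of the other initiation classes with at least 3 tested genes. The 2 genes of eIF5A, below that size, had slightly higher medians of 0.40 and 0.32. Whether the class differs from the others was not tested. Eif1ad, a nuclear protein with an eIF1A-like domain, stood at 12.8, 8.77 and 7.09 FPKM against 6.78, 5.71 and 6.66 FPKM (log2 fold change 0.48, SE 0.19, limma adjusted p = 0.314).

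The eIF2 subunits were near wild type once cKO replicate 1 was set aside. Eif2s1, the alpha subunit that the kinases phosphorylate, stood at 16.4, 10.4 and 10.1 FPKM in cKO and 9.74, 9.92 and 10.7 FPKM in wild type. Its difference (log2 fold change 0.23, SE 0.17) was 0.02 without cKO replicate 1. Eif2s3x, the gamma subunit, stood at 62.1, 40.8 and 44.0 FPKM against 43.5, 44.2 and 40.0 FPKM (log2 fold change 0.18, SE 0.17; -0.03 with TPM). Only cKO replicate 1 stood out in either gene. Eif2a, which can deliver initiator tRNA without eIF2, had the lowest log2 fold change of the class, 0.13 (SE 0.18). Eif2s3y, the Y-linked copy of the gamma subunit, was listed at 0 in 5 libraries and at 0.0914 FPKM in cKO replicate 1, about 1.89 estimated fragments.

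All 5 genes of eIF2B, which recharges eIF2 with GTP, had positive log2 fold changes as deposited and under median-of-ratios, quantile and TPM scaling, with a median of 0.26, and of 0.18 after scaling. The median was 0.09 without cKO replicate 1. Eif2b5, the catalytic epsilon subunit, was measured at 20.7, 13.6 and 13.1 FPKM in cKO and at 11.4, 11.4 and 11.5 FPKM in wild type. The wild type libraries nearly coincided and the cKO libraries lay above them (log2 fold change 0.41, SE 0.17, limma adjusted p = 0.330), and without cKO replicate 1 the log2 fold change was 0.21. Eif2b4, the delta subunit, stood at 7.47, 7.39 and 6.35 FPKM against 5.84, 5.93 and 5.83 FPKM (log2 fold change 0.23, SE 0.10, limma adjusted p = 0.346). Its cKO values did not overlap wild type, and it kept 0.19 without cKO replicate 1. Eif2b3 had the lowest value of the 5 at 0.21 (SE 0.14).

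The kinases of eIF2 alpha had the lowest median of the classes as deposited, -0.06, and after median-of-ratios scaling, -0.14, and the groups overlapped in all 4. That median was -0.03 without cKO replicate 1. Eif2ak4, which senses uncharged tRNA, stood at 3.41, 4.10 and 5.26 FPKM in cKO and at 5.48, 4.498 and 4.84 FPKM in wild type (log2 fold change -0.19, SE 0.15, limma adjusted p = 0.563). Eif2ak3, the kinase of endoplasmic reticulum stress, stood at 3.79, 4.61 and 4.03 FPKM against 4.77, 5.55 and 3.84 FPKM (log2 fold change -0.15, SE 0.14). In both genes the spread within a group exceeded the difference between groups. Eif2ak2, activated by double-stranded RNA, lay at 6.71, 6.42 and 6.76 FPKM against 6.01, 6.90 and 6.74 FPKM, and Eif2ak1, the haem-regulated kinase, at 17.0, 14.0 and 11.9 FPKM against 12.6, 12.2 and 9.42 FPKM (log2 fold change 0.30, SE 0.16, limma adjusted p = 0.428). The haem-regulated kinase was the most abundant of the 4 in every library.

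The 13 tested subunits of eIF3, the scaffold on the small ribosomal subunit, were all positive as deposited, 11 of 13 after median-of-ratios or quantile scaling and 9 with TPM. Their median was 0.28, or 0.19 after median-of-ratios scaling. Without cKO replicate 1, 10 were positive and the median was 0.07, as it was with TPM. Eif3c, a subunit of the core, had the largest difference: 79.5, 59.8 and 56.6 FPKM in cKO and 49.6, 46.7 and 47.3 FPKM in wild type. The cKO libraries all lay above wild type (log2 fold change 0.42, SE 0.15, limma adjusted p = 0.274; 0.0915 after scaling). Eif3a, the largest subunit, had the smallest at 27.3, 23.9 and 24.3 FPKM against 23.8, 24.5 and 24.8 FPKM, with a difference of 0.04 on the log2 scale (SE 0.10) that was -0.04 after scaling. The mean level per gene over the groups ran from 12.2 FPKM for Eif3j2 to 99.2 FPKM for Eif3f. Eif3j1 was listed at 0.104 to 0.203 FPKM and Eif3j2, a near-identical gene on chromosome 18, at 9.73 to 14.5 FPKM; reads of the pair may be shared, so the split between them is uncertain.

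**Figure D4:**
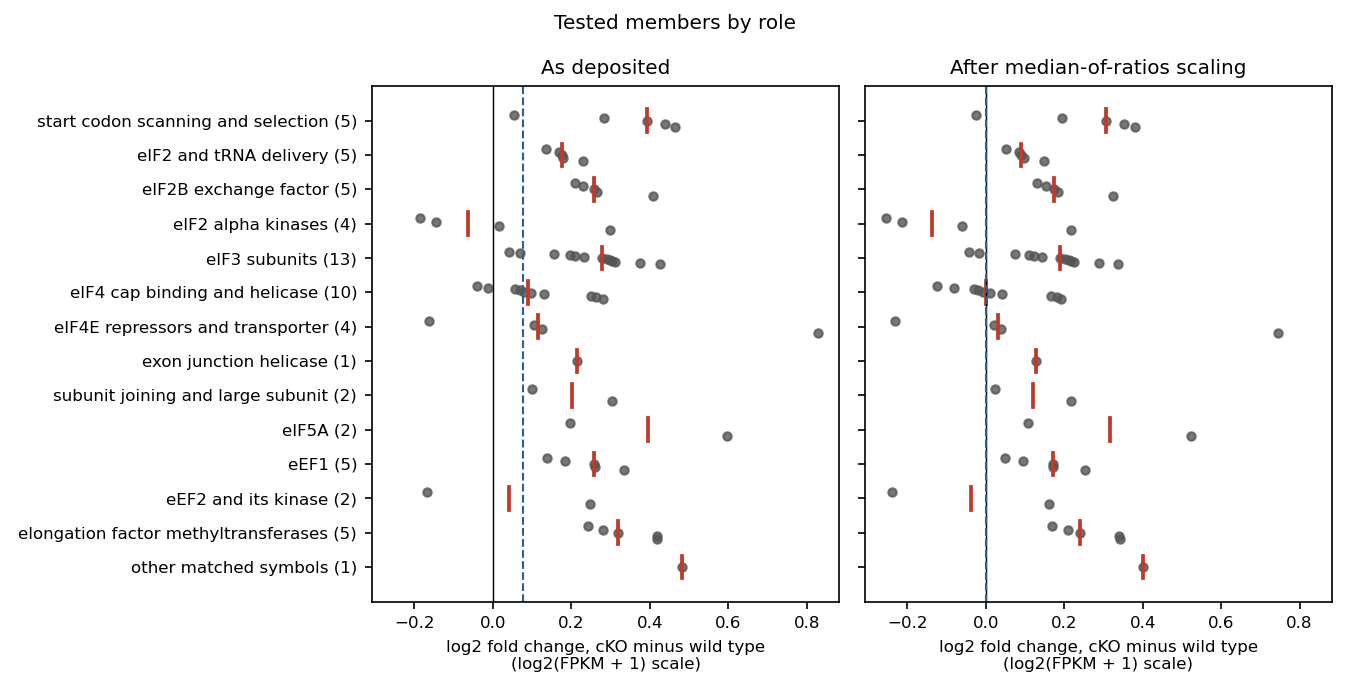
Log2 fold change (x axis, cKO minus wild type) of each tested member (grey points) by role, with the number of tested genes in brackets, as deposited and after median-of-ratios scaling. Red bars are class medians and the dashed line is the median of all tested genes, 0.08 and 0.00; the eIF2 alpha kinases have the lowest class median in both panels.

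Between the 2 genes of eIF5A the minor form differed more. Eif5a2, the paralog of restricted expression, had the smallest p of all tested members. It was measured at 6.48, 5.70 and 4.71 FPKM in cKO and at 3.77, 3.35 and 2.99 FPKM in wild type, each of the 3 cKO libraries above all wild type libraries. The log2 fold change was 0.60 (SE 0.13, limma adjusted p = 0.139) and 0.52 after scaling (limma adjusted p = 0.0614); it was called with quantile normalization (limma adjusted p = 0.0491) and its adjusted p over 17 alternatives ran from 0.049 to 0.442. The value was 0.50 without cKO replicate 1. Eif5a, the main form, stood at 168.9, 124.8 and 105.4 FPKM against 114.3, 119.1 and 108.4 FPKM, with cKO replicate 3 the lowest of all 6 libraries (log2 fold change 0.20, SE 0.19; -0.01 with TPM). The ratio of Eif5a2 to Eif5a, chosen after its values were seen, was 0.0384, 0.0457 and 0.0447 in cKO, compared with 0.0330, 0.0281 and 0.0276 in wild type (exact permutation p = 0.1).

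Eif5a and Eif5a2 need hypusine, and Dohh, outside the members, encodes the hydroxylase that completes it. Dohh was measured at 14.5, 11.95 and 10.01 FPKM in cKO and at 6.72, 5.71 and 6.84 FPKM in wild type. Its groups were well apart, with a difference of 0.81 on the log2 scale (SE 0.14, limma adjusted p = 0.0798). It passed in 6 of 18 alternatives, over which its adjusted p ran from 0.020 to 0.346. Median-of-ratios scaling was 1 of them (limma adjusted p = 0.0244), with 1.29% of all tested genes called.

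Of the factors that join the ribosomal subunits, Eif5b had a difference of 0.10 on the log2 scale (SE 0.11). Eif6, which keeps free large subunits apart from small ones, stood at 42.7, 36.3 and 24.3 FPKM in cKO and at 28.5, 24.1 and 28.6 FPKM in wild type. The groups overlapped through cKO replicate 3 (log2 fold change 0.30, SE 0.20, limma adjusted p = 0.505). Eif4a3, the helicase of the exon junction complex, which marks spliced mRNA, stood at 54.1, 35.6 and 29.6 FPKM against 33.2, 32.95 and 33.1 FPKM. In this gene cKO replicate 1 was the highest library and cKO replicate 3 the lowest, and the difference of 0.21 on the log2 scale (SE 0.20) became -0.03 without cKO replicate 1.

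Eef1a1 and Eef2 held the highest levels of all members. Eef1a1, which delivers aminoacyl-tRNA, stood at 2269.9, 1498.0 and 1439.0 FPKM in cKO and at 1539.5, 1619.3 and 1472.8 FPKM in wild type. Its difference of 0.14 on the log2 scale (SE 0.30, limma adjusted p = 0.847) rested on cKO replicate 1 and was -0.07 without it. Eef1a2, the form of muscle and neurons, was listed at 0 in 5 libraries and at 0.00355 FPKM in cKO replicate 3. Eef2 stood at 616.8, 446.2 and 409.4 FPKM against 428.5, 393.9 and 397.8 FPKM (log2 fold change 0.25, SE 0.21, limma adjusted p = 0.604; -0.04 with quantile normalization). Of the exchange factor subunits, Eef1g stood at 214.9, 142.0 and 137.9 FPKM against 134.3, 132.6 and 137.1 FPKM, a gap between the groups of under 1 FPKM. Eef1e1, a scaffold protein of the aminoacyl-tRNA synthetase complex, had the highest log2 fold change of the class, 0.33 (SE 0.15, limma adjusted p = 0.371).

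Eef2k, the calcium-dependent kinase that inhibits eEF2, was the 1 tested member lower in every cKO library. It was measured at 4.05, 4.01 and 3.91 FPKM in cKO and at 5.04, 4.47 and 4.34 FPKM in wild type. The cKO libraries nearly coincided, below the lowest wild type library. The difference of -0.17 on the log2 scale (SE 0.10, limma adjusted p = 0.463) was -0.24 after scaling (limma adjusted p = 0.255) and -0.18 without cKO replicate 1, and it was negative in 17 of 17 alternatives, with adjusted p from 0.238 to 0.769.

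The lysine methyltransferases of eEF1A and eEF2 were positive in 5 of 5 tested genes as deposited and under median-of-ratios, quantile and TPM scaling, with a median of 0.32 and of 0.24 after scaling, and had mean levels of 3.42 to 6.71 FPKM. Eef1akmt2 stood at 7.73, 5.93 and 6.91 FPKM in cKO and at 5.32, 4.78 and 4.49 FPKM in wild type, without overlap (log2 fold change 0.42, SE 0.12, limma adjusted p = 0.204). Eef1akmt1 stood at 10.6, 5.80 and 7.34 FPKM against 5.29, 5.47 and 5.76 FPKM, with cKO replicate 2 within 1 FPKM of wild type (log2 fold change 0.42, SE 0.18, limma adjusted p = 0.354). Eef2kmt, which modifies eEF2, had the lowest value, 0.24 (SE 0.18).

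Besides Eif4e1b, Eif3j1, Eif2s3y and Eef1a2, 4 members lay below the filter. Eef1akmt3 reached 0.403 FPKM at most and Eif4a3l1, a near copy of Eif4a3, 0.938 FPKM, both in wild type libraries. Eif2c5, whose symbol is an older name of an Argonaute gene and not of an initiation factor, reached 0.148 FPKM. Eef1akmt4-ece2, by its name a read-through of Eef1akmt4, reached 0.0910 FPKM. All 4 overlapped between the groups.

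Around the members, 7 lists of related translation genes held 55 tested genes, of which 0 were called, against 0.121% of all tested genes. After median-of-ratios scaling 1, Dohh, was called higher, when 1.29% of all tested genes were called. Of the 9 tested phosphatases and response factors of the eIF2 alpha pathway, 9 were positive as deposited and 6 after median-of-ratios, quantile or TPM scaling, against 65.2% of all tested genes as deposited, 50% after median-of-ratios and 30.8% after TPM scaling. Their median was 0.26, and 0.13 without cKO replicate 1. At an unadjusted p under 0.05, 3 were higher, against 9.89% of all tested genes. The 3 include Gcn1, the coactivator of the Eif2ak4 kinase, at 22.3, 19.1 and 16.7 FPKM in cKO against 15.9, 13.8 and 13.7 FPKM, and Impact, its inhibitor, at 8.84, 8.79 and 8.52 FPKM against 6.69, 7.70 and 6.66 FPKM (limma adjusted p = 0.253 and 0.265). Thus an activator and an inhibitor of that kinase were both higher in every cKO library as deposited, while Eif2ak4 itself overlapped. After median-of-ratios scaling Impact overlapped as well. The mTOR and MAPK inputs to eIF4F had a median of 0.04 over 9 genes, and of -0.04 after scaling. In that list Larp1, which binds the start tracts shown above, stood at 21.8, 20.4 and 20.9 FPKM against 19.7, 17.8 and 18.4 FPKM (log2 fold change 0.17, SE 0.10; -0.03 with TPM), and Mknk1, the eIF4E kinase, had a difference of 0.30 on the log2 scale (SE 0.16).

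The poly(A) binding list had a median of 0.22 over 5 tested genes, with Paip1 at 0.31 (SE 0.15) and Paip2 at 0.36 (SE 0.16). The termination and recycling list had a median of 0.14 over 7, with the release factor genes Gspt2 at 0.51 (SE 0.18) and Etf1 at 0.25 (SE 0.12). Hypusine and diphthamide synthesis had a median of 0.13 over 9, led by Dohh and by Dnajc24 at 0.37 (SE 0.12). Selenocysteine and GTP-binding factors had one of 0.18 over 6, with Pelo, the ribosome rescue factor, at 0.37 (SE 0.16) and Secisbp2 at 0.22 (SE 0.11). Mitochondrial translation factors had one of 0.20 over 10, with Tufm at 0.29 (SE 0.11) and Tsfm at 0.34 (SE 0.20). Of the genes named from these lists, Dohh alone passed in an alternative. As deposited, the medians of 6 lists, all but the mTOR inputs, lay above the 0.08 of all tested genes. Without cKO replicate 1 that of poly(A) binding was 0.05, of hypusine and diphthamide synthesis 0.03 and of the mitochondrial factors 0.05, against -0.00 over all tested genes. With TPM that of hypusine and diphthamide synthesis was -0.06 and that of termination and recycling -0.05, against -0.12 over all tested genes.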

How the data were processed

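FPKM values of 6 ovary libraries were deposited by the authors as 1 table, with 1 column per library that matched 1 sample title. The name of the deposit includes rmdup, so duplicate reads may have been removed before FPKM was computed. Whether such a step changed the levels of abundant or short transcripts was not tested. Per the submitters' processing notes, the tools were featureCounts 2.0.6, HISAT2 2.2.1 and STAR 2.7.11a and the build mm10, with no role stated for any; the program that gave FPKM and its annotation are not given in the sources used here. FPKM is relative to all mapped fragments, so a few abundant RNAs can shift a whole library.

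The 12442 genes whose mean reached 1 FPKM were compared on log2(FPKM + 1) with limma 3.58.1 in R 4.3.3 (intensity trend, two-sided moderated test, Benjamini-Hochberg, threshold 0.05). Fold changes on this scale understate those of low genes. Single values also had an exact two-sided permutation test. Depth came from FPKM steps of 2471 single-transcript genes over 1500 bp, taking fragments as 200 bp; lengths came from GENCODE M21 and coordinates and promoters from RefSeq (GRCm38). The main limma fit was tested on simulated data, and the depth estimate was not. The alternatives tried were: 0.1 FPKM as pseudocount, all genes unfiltered, a mean of 5 FPKM, median-of-ratios, quantile and TPM scaling, no trend, library weights, a replicate block, a length and GC correction, and leaving out each library (the filter was then applied to the 5 left); scaling without cKO replicate 1 was added after seeing the data. Members and gene lists were chosen with earlier results of these data known. Named are Hnrnpl, 18 set members, the 10 of smallest p, the 5 of highest level, the extremes of each role, untested members and the leading genes of related lists.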

Additional observations from a re-analysis of the deposited data

How the results depend on the processing

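Over 18 alternatives, 835 of 891 values of 50 named genes kept their direction and side of the threshold, 10 passed it and 46, of 12 genes, changed sign. The number of genes called, 15, was 34 with a pseudocount of 0.1 FPKM, 5 without a filter or without the intensity trend, 23 at a mean of 5 FPKM, 161 with median-of-ratios, 236 with quantile and 149 with TPM scaling, 269 when corrected for length and GC, 172 with library weights, 95 with median-of-ratios scaling without cKO replicate 1, and 2 to 89 with 1 library left out; that is 89 without cKO replicate 1, 74 without cKO replicate 3, 4 without cKO replicate 2, and 2, 2 and 6 without wild type replicates 1, 2 and 3. Members called, 0, were 2 with quantile normalization, 1 with the length and GC correction and 0 to 1 with 1 library left out. The members' median, 0.23, was 0.041 with TPM, 0.11 with quantile normalization, 0.12 with the length and GC correction, 0.088 with library weights, 0.063 to 0.35 with 1 library left out and 0.066 with scaling without cKO replicate 1. The cause of these shifts was not tested. Estimated depth of 7100000 to 14100000 fragments limits Eif4e1b and the other members below 1 FPKM.

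Deviations from the group means correlated at -0.01, 0.04 and 0.07 in same-numbered libraries and at -0.07 to 0.03 in the other pairs. No pairing by replicate number was evident, but values this small cannot exclude one. With the replicate block 2 genes and 0 members were called and the members' median was 0.23.

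Class medians that shifted by more than the spread between libraries come first. At a mean of 5 FPKM, eEF2 and its kinase had 0.25, the eIF2 alpha kinases 0.16 and eIF5A 0.20, since fewer genes were tested. With quantile normalization, eEF2 and its kinase had -0.13, start codon factors 0.23 and eIF4 factors -0.038. With TPM these 3 had -0.17, 0.19 and -0.12, the eIF2 alpha kinases -0.27 and the eIF4E repressors -0.087. Start codon factors had 0.23 with the length and GC correction, with or without the replicate block, and with or without scaling when cKO replicate 1 was left out. With 1 library left out start codon factors had 0.23 to 0.47, eIF4 factors had -0.0075 to 0.16 and methyltransferases had 0.13 to 0.49. The methyltransferases had 0.13 with scaling without cKO replicate 1. Within that spread, but by over 1.5 times or in sign, eIF2 and tRNA delivery went from 0.18 to -0.028 with TPM, and eEF2 and its kinase from 0.040 to -0.039 with median-of-ratios scaling. Without cKO replicate 1, eIF3 went from 0.28 to 0.074, eEF1 from 0.26 to 0.055, eIF2B from 0.26 to 0.085 and eIF2 and tRNA delivery to 0.023.

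The following turned negative. With median-of-ratios scaling, the log2 fold change was Eif1a -0.026, Eif2ak2 -0.059 and Eif3a -0.043. With quantile normalization it was Eef1a1 -0.21, Eef2 -0.037, Eif1a -0.045, Eif2ak2 -0.066, Eif3a -0.073 and Eif4ebp2 -0.0033. With TPM it was Eef1a1 -0.070, Eif1a -0.15, Eif2a -0.063, Eif2ak2 -0.18, Eif2s3x -0.028, Eif3a -0.16, Eif4ebp2 -0.096, Eif5a -0.011, Eif5b -0.089 and Larp1 -0.034. With library weights it was Eef1a1 -0.015, Eif1a -0.037, Eif2a -0.013 and Eif3a -0.0034. With length and GC correction, with or without the replicate block it was Eef1a1 -0.024, Eif1a -0.077, Eif2ak2 -0.050 and Eif3a -0.0095. Without cKO replicate 1 it was Eef1a1 -0.071, Eif1a -0.027, Eif2a -0.059, Eif2s3x -0.0039, Eif3a -0.017, Eif4a3 -0.026 and Eif5b -0.00049. Without cKO replicate 3 it was Eif1a -0.0047. Without wild type replicate 1 it was Eif2ak2 -0.036. With median-of-ratios scaling without cKO replicate 1 it was Eef1a1 -0.068, Eif1a -0.024, Eif2a -0.056, Eif2s3x -0.00026, Eif3a -0.013 and Eif4a3 -0.022. With 1 library left out the ranges were Eef1a1 -0.071 to 0.26, Eif1a -0.027 to 0.19, Eif2a -0.059 to 0.25, Eif2ak2 -0.036 to 0.050, Eif2s3x -0.0039 to 0.29, Eif3a -0.017 to 0.076, Eif4a3 -0.026 to 0.40 and Eif5b -0.00049 to 0.18.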

Other observations

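Eif3j1 was listed at 0.203, 0.138 and 0.121 FPKM in cKO and 0.104, 0.106 and 0.135 FPKM in wild type. With the estimated depths this is 7.52, 7.62 and 7.48 fragments in cKO and 7.67, 7.43 and 7.70 in wild type, nearly the same in 6 libraries whose estimated depths run from 7100000 to 14100000. The value was noticed after the data were seen, and its cause was not tested.

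Foxl2, a transcription factor of granulosa cells, stood at 86.5, 64.9 and 70.0 FPKM in cKO and at 57.5, 60.2 and 59.8 FPKM in wild type, above wild type in every cKO library (log2 fold change 0.30, SE 0.14, limma adjusted p = 0.367). In its marker list 2 of 10 genes, Foxl2 and Amhr2, were higher in every cKO library, against 15.5% of all tested genes. Another 2, Lhx9 and Rspo1, were lower in every cKO library, against 7.03%. Lhx9, a transcription factor of the gonad, stood at 10.7, 9.79 and 10.1 FPKM in cKO and at 15.5, 16.1 and 15.7 FPKM in wild type (log2 fold change -0.58, limma adjusted p = 0.0645, and 0.0144 after median-of-ratios scaling). Rspo1, an activator of WNT signalling, had -0.39 (limma adjusted p = 0.213, and 0.0253 after that scaling). The stroma, endothelial and surface epithelium lists had negative medians of -0.34, -0.42 and -0.57 over 8, 6 and 6 genes, beside the positive median of the translation factors. In these lists 0, 0 and 1 genes were called lower, against 0.121% of all tested genes called in either direction. As deposited 6, 5 and 5 of them were lower in every cKO library, against 7.03% of all tested genes. After median-of-ratios scaling 8, 6 and 6 were, against 13%. With that scaling 1, 0 and 3 were called lower, against 1.29% of all tested genes called in either direction. The erythroid list had a median of -0.55 over 5 tested genes, of which 0 were called, against the same 0.121%. Its 6 genes summed to 462.6 to 533.9 FPKM in cKO and 771.7 to 836.2 FPKM in wild type.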
